A study of Mus musculus with 24 samples.

Results

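*Tmem130*, *Nlrp2*, *Cyp4b1*, *Ppp1r14c*, and *Meox2* are 5 of the 14427 genes counted by RNA-seq in 8 lines of mouse cortical astrocytes, with 3 libraries per line. They were chosen by their level, as the largest rises of single mutant lines over the p53 knockout of the same culture. The rise that chose each gene is therefore a description and carries no test here. For each gene, the line of its largest fitted rise was taken as the one that chose it. The rule names no line, so rises in the other culture may have counted as well. The label under which they were grouped, genes switched on in single mutant lines, held for only 2 of the 5. With a line counted as on when each of its 3 libraries reached 1 CPM (the count per 1000000 counts of the library), *Cyp4b1* and *Meox2* were on in 1 line, *Ppp1r14c* in 2 lines, *Nlrp2* in 3 lines, and *Tmem130* in all 6 mutant lines.

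All lines came from 1 male and 1 female culture of *Trp53* f/- astrocytes from C57BL/6 pups on postnatal day 1, each pooled from several pups of that sex, and were used between passages 10 and 15. The p53 KO lines received a lentivirus with Cre and a puromycin resistance gene. The p53 R172H, p53 Y202C, and p53 Y217C lines received the same lentivirus after a retrovirus that carried the mutant *Trp53* with eGFP, and were sorted for eGFP. Mutant p53 and the retrovirus with its sort cannot be told apart in any comparison with p53 KO, and the 3 libraries of a line, as separate thaws and platings, measure the spread within that line and not between animals.

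The proteins have unrelated roles. TMEM130 is a membrane protein of the family of PMEL and GPNMB, which are glycoproteins of pigment granules and lysosomes. NLRP2 belongs to the NOD-like receptors, cytosolic sensors of which several assemble caspase-1 inflammasomes, and it is also a maternal protein of the oocyte's subcortical complex. CYP4B1 is a cytochrome P450 that oxidizes fatty acids and foreign chemicals, best known from the lung. PPP1R14C inhibits the catalytic subunit of protein phosphatase 1 once protein kinase C has phosphorylated it, in the way its relatives act on myosin phosphatase. MEOX2 is a homeobox transcription factor of somites, limb muscle, and blood vessels. None of these genes is a standard marker of astrocytes.

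The libraries held from 52787288 to 136503809 counts, with a median of 80684345, so that 3 counts, the most that a count of 0 allows for, stood for 0.0228 to 0.056 CPM. A line was called off when all of its libraries were under 0.1 CPM, which is 5.36 to 13.1 counts, and low when it was neither on nor off. *Trp53* separated the p53 KO libraries from the mutant ones, although it was on in all of them. It averaged 50.9 ± 2.75 CPM in male and 48.9 ± 2.72 CPM in female p53 KO (SD, n = 3), and between 593 and 3709 CPM in the mutant lines. Counts per gene do not show the deleted exons or which mutation a line carries. Of 10 astrocyte markers, *Vim*, *Sox9*, *Gja1*, and *Slc1a3* were on in all 8 lines, whereas *Gfap* was on only in male p53 Y217C and *Aqp4* had at most 3 counts per library in 5 lines. The 6 fibroblast and meningeal markers summed to between 8691 and 48670 CPM, and *Aif1*, *Ptprc*, *Pecam1*, *Cldn5*, *Sox10*, and *Rbfox3*, which define microglia, leukocytes, endothelium, oligodendrocytes, and neurons, were not among the genes analysed here. Other genes of those marker lists were on in all 8 lines: *Tmem119* (16.4 to 107 CPM) and *Cd68* (2.03 to 22.9 CPM) for microglia and macrophages, *Cspg4* (54.9 to 313 CPM) and *Mbp* (2.65 to 12.9 CPM) for the oligodendrocyte lineage, and *Tubb3* (15.7 to 98.7 CPM) and *Map2* (3.01 to 116 CPM) for neurons.

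The 5 genes lie on 5 chromosomes of GRCm38. They are *Tmem130* on chr5:144735915-144761818 (minus strand), *Nlrp2* on chr7:5298547-5351035 (minus strand), *Cyp4b1* on chr4:115624725-115647723 (minus strand), *Ppp1r14c* on chr10:3366057-3464975 (plus strand), and *Meox2* on chr12:37108540-37179534 (plus strand). In the 250 bases before the RefSeq start, *Tmem130* had 13 CG dinucleotides and *Meox2* had 12, more than 68.5% and 66.5% of the 32851 mouse promoters of the same length. All but 10 of these bases of *Tmem130* lie inside the annotated gene. The promoters of *Nlrp2*, *Cyp4b1*, and *Ppp1r14c* had 2, 3, and 5 in their 250 bases, more than 18.8%, 29%, and 44.4% of all promoters. They follow here with that of *Meox2* for contrast, from the RefSeq promoters of GRCm38.p6, 5′ to 3′ toward the gene, up to the first annotated transcript, with each CG dinucleotide in capitals. The stretch of *Ppp1r14c* is 157 bases long and holds 1 of its 5. The stretches are chr7:5351036-5351285 (minus strand), chr4:115647724-115647971 (minus strand), chr10:3365900-3366056 (plus strand), and chr12:37108290-37108539 (plus strand).
Nlrp2: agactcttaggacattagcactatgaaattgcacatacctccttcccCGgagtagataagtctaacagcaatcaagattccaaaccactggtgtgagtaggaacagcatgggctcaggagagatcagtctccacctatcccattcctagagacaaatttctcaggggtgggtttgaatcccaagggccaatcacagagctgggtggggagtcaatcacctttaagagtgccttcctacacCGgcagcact
Cyp4b1: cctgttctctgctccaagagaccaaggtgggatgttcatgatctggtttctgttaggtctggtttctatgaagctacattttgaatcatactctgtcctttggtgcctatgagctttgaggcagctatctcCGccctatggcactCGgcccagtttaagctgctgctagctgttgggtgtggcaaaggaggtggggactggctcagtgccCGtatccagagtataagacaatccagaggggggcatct
Ppp1r14c: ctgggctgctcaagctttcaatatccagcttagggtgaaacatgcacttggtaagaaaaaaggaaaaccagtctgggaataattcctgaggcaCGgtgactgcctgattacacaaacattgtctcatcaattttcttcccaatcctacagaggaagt
Meox2: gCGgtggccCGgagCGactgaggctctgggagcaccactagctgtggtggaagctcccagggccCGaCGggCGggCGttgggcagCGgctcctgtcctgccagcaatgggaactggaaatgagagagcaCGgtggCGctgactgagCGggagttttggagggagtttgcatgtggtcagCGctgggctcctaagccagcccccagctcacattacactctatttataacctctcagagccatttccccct

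Over the 250 bases and on both strands, TATAAA was found in the *Meox2* promoter alone of the 5, and in 12.4% of all promoters. The CCAAT box was found for *Nlrp2* and *Ppp1r14c* and in 33.8% of all promoters. The pattern TGANTCA, with any base at its center, was found for *Cyp4b1*, as TGAATCA, and in 6.75% of all promoters. The E-box CANNTG, which matches in 66.2% of all promoters, was found for every gene but *Nlrp2*. The p53 consensus decamer was in none of the 5 windows and in 7.13% of all promoters. These are matches of letters, and no binding was measured here.

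**Figure D1:**
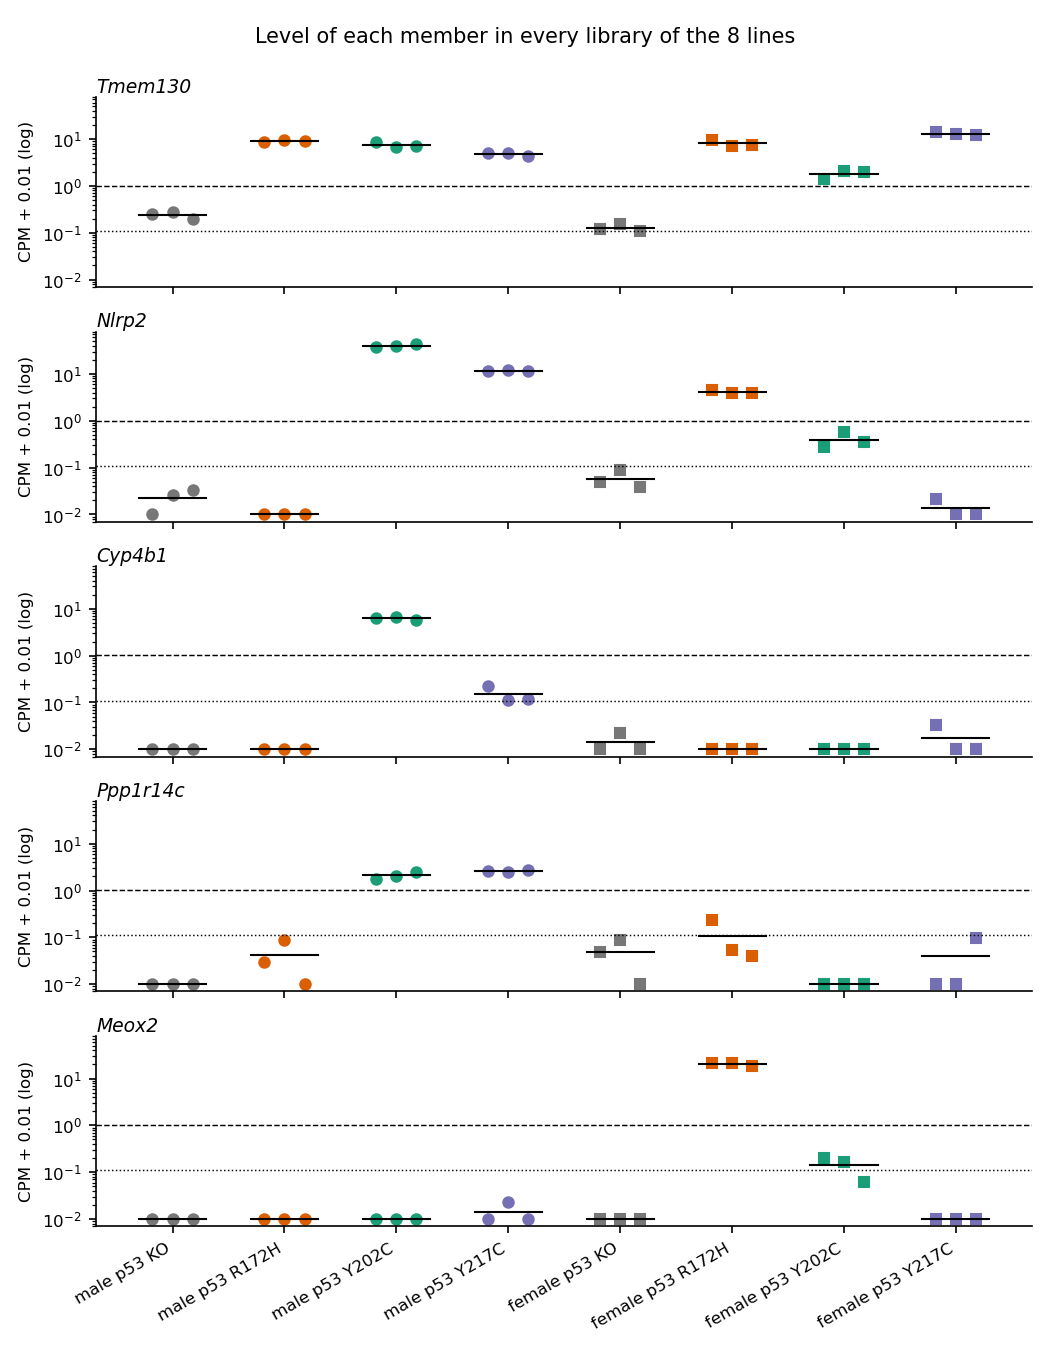
CPM plus 0.01 on a log axis for the 5 genes in each of the 24 libraries (circles, male lines; squares, female lines; black bars, line means of 3 libraries; dashed line, 1 CPM; dotted line, 0.1 CPM). *Tmem130* sits above 1 CPM in every mutant library, whereas *Cyp4b1* does so only in male p53 Y202C and *Meox2* only in female p53 R172H.

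Over the 5 genes and 8 lines there were 13 on, 6 low, and 21 off states. Across all 14427 genes, 11578 were on in all 8 lines and 744 were on in exactly 1 line, which is 5.16%. Only 13 genes were on in 1 line and off in the other 7, and none of the 5 was among them, because *Cyp4b1* and *Meox2* each had a further line in the low range. The on lines of *Tmem130* were shared by 6 genes in all, itself included, those of *Nlrp2* by 31, those of *Ppp1r14c* by 102, those of *Cyp4b1* by 123, and those of *Meox2* by 175. The level of an on gene was modest in most cases. In RPKM, which is CPM divided by the exon length in kilobases, *Nlrp2* in male p53 Y202C reached 11.3 ± 0.664 (SD, n = 3), above 69.1% of all genes, and *Meox2* in female p53 R172H reached 8.59 ± 0.779, above 62.4%. *Tmem130*, *Cyp4b1*, and *Ppp1r14c* stayed under the level of most genes, with at most 4.51, 2.76, and 1 RPKM.

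*Tmem130* was the broadest of the 5. Its counts were 20, 33, and 24 in the male p53 KO libraries and 11, 11, and 10 in the female ones. Among male mutant lines, p53 R172H had 896, 746, and 721 counts, p53 Y202C had 871, 500, and 462, and p53 Y217C had 401, 397, and 319. Among female mutant lines, p53 R172H had 920, 681, and 982, p53 Y202C had 74, 132, and 157, and p53 Y217C had 1180, 1034, and 833. Every mutant library was thus above every p53 KO library, and both p53 KO lines were low and not off.

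In CPM, *Tmem130* was highest in female p53 Y217C, at 13.1 ± 0.778 (SD, n = 3), and no library of another line reached that line's lowest. Next came male p53 R172H at 9.14 ± 0.44, female p53 R172H at 8.17 ± 1.38, and male p53 Y202C at 7.51 ± 1.05, whose ranges overlapped. Male p53 Y217C at 4.80 ± 0.465 and female p53 Y202C at 1.81 ± 0.371 each stood apart from their neighbors in this order, and male and female p53 KO, at 0.229 ± 0.0413 and 0.115 ± 0.023, did not overlap either. With on set at 2 CPM, female p53 Y202C no longer counted, and *Tmem130* was on in 5 lines.

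The rise that chose *Tmem130* was that of female p53 Y217C over female p53 KO, 114-fold with a 95% counting interval of 82.4 to 171. On the fitted log2 scale it was 6.84, ranked 2 of all genes, just under *Bcas1* at 7.03 and above *Serpina3n* at 6.70. The other female lines share the p53 KO libraries with that comparison, and were 70.9-fold (p53 R172H) and 15.7-fold (p53 Y202C) above them. The male culture shares no library with it. Its rises were open to the same rule, with that of p53 R172H ranked 3 of all genes, so they are no independent test of the choice. There *Tmem130* rose by 5.32 ± 0.18 (log2 fold change ± SE) in p53 R172H, by 5.04 ± 0.18 in p53 Y202C, and by 4.39 ± 0.18 in p53 Y217C, with adjusted p of 1.14e-16, 2.51e-17, and 3.52e-16 by edgeR's quasi-likelihood test with Benjamini-Hochberg adjustment. In those comparisons 20.2%, 37.6%, and 34.9% of all genes were called higher. In RNA from whole cultures, more cells that express a gene and more RNA per cell cannot be told apart, here and for each gene that follows.

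The level of *Tmem130* moved with that of *Trp53*, whose counts in the mutant lines include the introduced gene. Per 1000 CPM of *Trp53*, *Tmem130* had 4 ± 0.311 CPM in male p53 R172H, 3.22 ± 0.304 in male p53 Y202C, and 3.95 ± 0.371 in male p53 Y217C (SD, n = 3). In the female lines it had 4.19 ± 0.845, 3.06 ± 0.664, and 3.54 ± 0.321 in the same order. The ratio was 4.49 ± 0.696 in male and 2.37 ± 0.575 in female p53 KO, so it spanned less than the 7.24-fold range of *Tmem130* and the 6.25-fold range of *Trp53* among the mutant line means. *Trp53* was also the gene whose pattern was most like that of *Tmem130*, with a Pearson correlation of 0.994 over the 8 line means of log2 CPM, which fall into a p53 KO and a mutant group, and 0.985 over the 6 mutant lines alone. The same measure over the mutant lines was between -0.242 and 0.155 for the other 4 genes. By rank (Spearman correlation) over the 6 mutant lines it was 0.829 for *Tmem130* and between -0.759 and 0.395 for the other 4. Male p53 R172H had a higher mean of *Tmem130* than male p53 Y202C (9.14 against 7.51 CPM) and a lower mean of *Trp53* (2287 against 2324 CPM). The libraries of these lines overlapped for both genes.

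Other genes close in likeness were *Bcas1* (0.985), *Zan* (0.976), and *Zfp273* (0.958). *Zan*, which encodes the sperm protein zonadhesin, was on in all 6 mutant lines and low in both p53 KO lines, as *Tmem130* was. It lies 7.26 Mb from *Tmem130* on chromosome 5, had 2.14 to 3.54 CPM per 1000 CPM of *Trp53* in the mutant lines against 8.04 in male and 10.4 in female p53 KO, and overlaps *Ephb4* on the opposite strand, from which its reads may not be told apart. *Bcas1*, a gene of myelinating cells, was on only in female p53 Y217C, at 1.58 ± 0.459 CPM. No stretch of 31 bases was shared between the annotated transcripts of *Trp53* and those of *Tmem130*, *Zan*, or *Bcas1*. The ratios and shared stretches were computed after the values were seen, and the part of *Trp53* in the level of *Tmem130* was not tested.

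**Figure D2:**
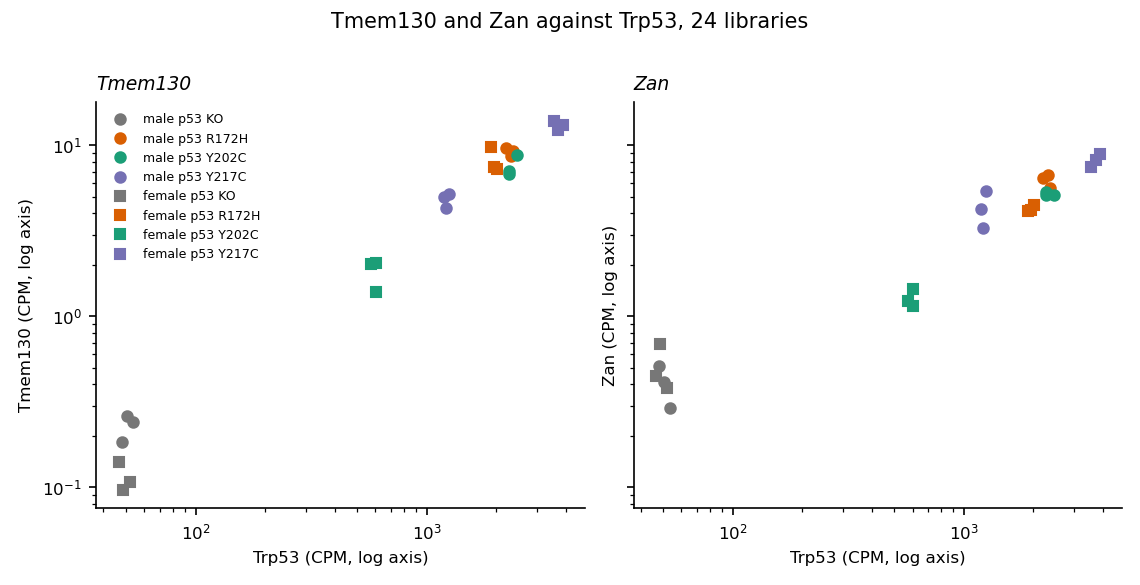
*Tmem130* (left) and *Zan* (right) against *Trp53* in 24 libraries, all in CPM on log axes (circles, male lines; squares, female lines; colors, genotypes). The p53 KO libraries sit near 50 CPM of *Trp53* at the lower left, female p53 Y202C follows at 593 CPM on average, and female p53 Y217C is at the upper right with 3709 CPM.

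The relatives of *Tmem130* did not rise in female p53 Y217C. *Gpnmb*, a glycoprotein of lysosomes, fell in female p53 Y217C from 3.66 ± 0.153 to 0.147 ± 0.0652 CPM (SD, n = 3, log2 fold change -4.66, adjusted p = 1.14e-14, edgeR), and *Pmel*, the pigment granule protein, was low in both at 0.485 and 0.589 CPM (adjusted p = 0.476, edgeR). In that comparison 28% of all genes were called higher and 28.7% lower. *Gpnmb* was highest in female p53 R172H, where *Tmem130* was also on, at 22.1 ± 4.31 CPM (2485, 2080, and 2324 counts).

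*Nlrp2* was on in 3 lines from both cultures. Its counts were 0, 2, and 3 in male p53 KO and 0 in all 3 male p53 R172H libraries, but 3818, 2859, and 2785 in male p53 Y202C and 926, 920, and 872 in male p53 Y217C. In the female culture p53 KO had 4, 6, and 3 counts and p53 R172H had 418, 374, and 521, while p53 Y202C had 14, 36, and 27 and p53 Y217C had 1, 0, and 0. The same mutation had different states in the 2 cultures. The p53 R172H line was off in the male and on in the female culture, p53 Y217C was on in the male and off in the female culture, and p53 Y202C was on in the male and low in the female culture.

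Male p53 Y202C stood at 39.8 ± 2.33 CPM, male p53 Y217C at 11.7 ± 0.176, female p53 R172H at 4.13 ± 0.26, and female p53 Y202C at 0.388 ± 0.152 (SD, n = 3), with no overlap between neighbors in this order. The rise that chose the gene, that of male p53 Y202C, was 3082-fold over 5 counts in male p53 KO, with a 95% counting interval of 1151 to 8278. It ranked 2, between *Cyp4b1* at 12.09 and *Ttc29* at 10.67 on the fitted log2 scale. Male p53 Y217C shares the p53 KO libraries with it and was 907-fold above them.

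The female culture shares no library with the rise that chose *Nlrp2*. Its rises were open to the same rule, so they are no independent test of the choice. In the female culture *Nlrp2* rose in p53 R172H by 6.44 ± 0.24 (log2 fold change ± SE, adjusted p = 4.24e-16, edgeR), which is 85.4-fold with a counting interval of 52.2 to 169. It rose in p53 Y202C by 3.05 ± 0.36 (adjusted p = 1.36e-07), without reaching 1 CPM in any library. In p53 Y217C it fell by 3.04 ± 0.93 on the log2 scale (adjusted p = 0.00831, edgeR), from 13 counts in all to 1, a difference between a pair of off lines that was lost (adjusted p = 0.0739) when only the libraries of those lines were fitted. The shares of all genes called higher were 34.4% in p53 R172H and 34.3% in p53 Y202C.

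The pattern closest to that of *Nlrp2* was that of *Adhfe1*, a mitochondrial alcohol dehydrogenase, with a Pearson correlation of 0.995 over the 8 line means and the same 3 lines on. *Adhfe1* had 4.57, 4.02, and 2.38 CPM in male p53 Y202C, male p53 Y217C, and female p53 R172H, 1.01 CPM in female p53 Y202C, and from 0.366 to 0.493 CPM elsewhere. The next genes, the lysosomal galactosidase *Gla*, the heme transporter *Slc48a1*, the clock repressor *Nr1d2*, and *Klhl7*, had correlations of 0.976 to 0.967 and were on in all 8 lines, so they followed the order of *Nlrp2* without its off state. Among the astrocyte markers, *Aldh1l1*, a folate enzyme, was on in the same 3 lines as *Nlrp2*, at 28.4, 56.6, and 14.9 CPM, and between 0.0546 and 0.629 CPM in the other 5. It was picked after the values were seen, and other astrocyte markers were lower in male p53 Y202C than in male p53 KO: *Gfap* (0.0591 against 0.257 CPM), *S100b* (0.08 against 0.217), *Slc1a3* (6.69 against 12.2), *Aldoc* (0.774 against 3.06), *Sox9* (80 against 151), and *Gja1* (81 against 187). The summed astrocyte markers, of which *Vim* made up most with line means of 3325 to 4745 CPM, were 4549 to 5060 CPM in male p53 Y202C, 5084 to 5168 in male p53 Y217C, and 4953 to 5775 in female p53 R172H, against 3634 to 3765 in male p53 R172H, 4445 to 4651 in male p53 KO, 4625 to 4757 in female p53 KO, 4697 to 5433 in female p53 Y202C, and 3559 to 3685 in female p53 Y217C. Male p53 R172H and female p53 Y217C were thus under every on line, and the other 3 overlapped with at least 1 of them. In male p53 Y217C, also on for *Nlrp2*, *Gfap*, *S100b*, *Slc1a3*, and *Aldoc* were higher than in male p53 KO, while *Sox9* and *Gja1* were not. Their values are given with *Ppp1r14c*. The part of these markers in the level of *Nlrp2* was not tested.

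Inflammasome genes changed in both directions in male p53 Y202C. Of 30 genes listed for NOD-like receptors and inflammasomes, 15 were in the table, of which 7 rose, 6 fell, and 2 did not pass the test, with a median log2 fold change of 0.24 against 0.01 for all genes. In that comparison 37.6% of all genes were called higher and 35.4% lower. *Casp1*, the inflammasome protease, rose from 0.251 ± 0.139 to 5 ± 0.849 CPM (log2 fold change 4.24, adjusted p = 2.5e-10, edgeR). *P2rx7*, the ATP-gated channel that triggers the NLRP3 inflammasome, rose from 7.61 ± 0.495 to 61.8 ± 2.04 CPM (3.02, adjusted p = 6.15e-17). *Nlrc5*, a regulator of MHC class I genes, rose from 1.39 to 9.12 CPM (2.71, adjusted p = 2.96e-13).

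The 3 largest falls of that list were in *Panx1*, a channel for ATP release (-1.21, adjusted p = 1.88e-09, edgeR), *Nod1*, a sensor of bacterial peptidoglycan (-0.88, adjusted p = 1.78e-09), and *Gsdmd*, the pore former of pyroptosis (-0.71, adjusted p = 2.18e-08). *Nlrp3* and *Pycard*, the sensor and adaptor of the classical inflammasome, and its product *Il1b* were not among the genes analysed. Of the 8 other genes of the oocyte complex, only *Tle6* and *Zbed3* were in the table, and both fell, by 0.82 and 0.48 on the log2 scale (adjusted p = 2.32e-07 and 3.12e-08, edgeR). No other NLRP gene of either list was among the genes analysed.

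*Cyp4b1* was on in male p53 Y202C alone. Its counts there were 643, 491, and 369, and in male p53 Y217C they were 17, 8, and 8. All 3 libraries of male p53 KO, male p53 R172H, female p53 R172H, and female p53 Y202C had 0, female p53 KO had 0, 1, and 0, and female p53 Y217C had 2, 0, and 0. The on line reached 6.24 ± 0.539 CPM (SD, n = 3), the next line 0.141 ± 0.0617, and no library of the other 6 lines went above the 3 counts that a count of 0 allows. The rise that chose it, in male p53 Y202C over male p53 KO, was at least 155-fold, taking 3 counts per p53 KO library as the floor and the lowest library of the on line, and it ranked 1 at 12.09 on the fitted log2 scale. By the same measure male p53 Y217C, which shares those p53 KO libraries, was at least 2.85-fold above them. No fold is given in the female culture, where p53 KO and all 3 mutant lines were at or under the floor.

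The low level in male p53 Y217C was 2.26% of that in male p53 Y202C. In all, 15 genes were on in male p53 Y202C and off in the 6 lines other than male p53 Y217C. In male p53 Y217C, 5 of them were on, 6 low, and 4 off, at 0% to 230% of their level in male p53 Y202C. The source of the low level of *Cyp4b1* in male p53 Y217C was not tested. The 5 genes most like *Cyp4b1* were the ceramide synthase *Cers2* (0.994 over the 8 line means), the cilium gene *Cfap54* (0.993), the autophagy receptor *Sqstm1* (0.992), the polyamine acetyltransferase *Sat1* (0.99), and the zinc transporter *Slc30a9* (0.99). Of these only *Cfap54* had the same single line on, at 2.36 CPM, and the other 4 were on in all 8 lines. *Sqstm1* stood at 1272 CPM in male p53 Y202C and between 357 and 628 CPM elsewhere.

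Several other P450 genes were higher in male p53 Y202C too. Of 33 genes listed for P450 families 1 to 4 and their electron donors, 15 were in the table, of which 9 rose, 3 fell, and 3 did not pass the test, with a median log2 fold change of 0.26 against 0.01 for all genes, in a comparison where 37.6% of all genes were called higher and 35.4% lower. Within family 4, *Cyp4f13* rose from 8.15 ± 0.511 to 19.2 ± 0.137 CPM (log2 fold change 1.23, adjusted p = 4.93e-10, edgeR), *Cyp4v3*, a fatty acid hydroxylase, by 1.21 (adjusted p = 4.19e-08), and *Cyp4f17* by 0.83 (adjusted p = 1.1e-08), whereas *Cyp4f16* fell by 0.39 (adjusted p = 0.000224). Outside family 4, *Cyp2j9* rose by 2.73 (adjusted p = 9.66e-05), from 0.127 to 0.938 CPM. Among the electron donors, *Cyb5r3*, the cytochrome b5 reductase, rose from 456 to 827 CPM (0.86, adjusted p = 4.09e-13), *Por*, the reductase of microsomal P450s, rose by 0.25 (adjusted p = 9.99e-05), and *Cyb5b* and *Cyb5a*, the cytochromes b5, fell by 0.28 and 0.19 (adjusted p = 4.03e-05 and 0.000734). These changes were small beside that of *Cyp4b1*, and 11.7% of its 31-base stretches also occur in its annotated pseudogenes, so reads from those stretches may not be assigned uniquely.

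*Ppp1r14c* was on in male p53 Y202C and male p53 Y217C. The 3 libraries had 1.72, 2.04, and 2.49 CPM in the former and 2.61, 2.48, and 2.77 CPM in the latter, from 151 to 209 counts. All male p53 KO libraries had 0 counts, and male p53 R172H had 2, 6, and 0. In the female culture p53 KO had 4, 6, and 0 counts and p53 R172H had 21, 4, and 4, while all p53 Y202C libraries had 0 and p53 Y217C had 0, 0, and 6. In the female culture only 1 library of p53 R172H, at 0.223 CPM, and 1 of p53 Y217C, at 0.0886 CPM, exceeded the highest p53 KO library, at 0.0769 CPM.

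The on lines stood at 2.62 ± 0.145 CPM (male p53 Y217C) and 2.08 ± 0.384 CPM (male p53 Y202C), with overlapping ranges, and the next was female p53 R172H at 0.0986 ± 0.108 (SD, n = 3), where the SD exceeds the mean. The rise that chose the gene, in male p53 Y217C, was at least 68.5-fold, and it ranked 2, under *Serpina3n* at 11.33 and above *Rnase1* at 10.81 on the fitted log2 scale, with *Ppp1r14c* at 10.84. Male p53 Y202C, with the same p53 KO libraries, was at least 47.5-fold above them. In the female culture the log2 fold change was 1.35 ± 0.94 (SE) under p53 R172H (adjusted p = 0.21, edgeR), -4.70 ± 2.58 under p53 Y202C (adjusted p = 0.114), and -0.43 ± 1.29 under p53 Y217C (adjusted p = 0.799). The counting interval of the ratio was 1.22 to 5.92 for p53 R172H and 0.219 to 2.23 for p53 Y217C, and covers counting error only. In p53 R172H the value rested on replicate 1, without which the log2 fold change was 0.00 and the line was off. Of the 31-base stretches of *Ppp1r14c*, 29.8% also occur in other genes, among them the antisense RNA *Gm26752*, and the strand of counting is not stated, so part of its reads may not be told apart from these.

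Of the astrocyte markers, *Aqp4*, the water channel of end feet, was on in the same lines as *Ppp1r14c*, at 1.77 and 8.06 CPM in male p53 Y202C and male p53 Y217C and at most 0.113 CPM in the other 6. *Slc1a2*, a glutamate transporter, was on there at 1.79 and 7.82 CPM and also in female p53 Y202C at 1.49 CPM. Both were picked after the values were seen, and 6 other astrocyte markers were lower in male p53 Y202C than in male p53 KO, as given for *Nlrp2*. Of those 6, *Gfap* (6.93 against 0.257 CPM), *S100b* (1.28 against 0.217), *Slc1a3* (106 against 12.2), and *Aldoc* (5.77 against 3.06) were higher in male p53 Y217C than in male p53 KO. *Sox9* (150 against 151) and *Gja1* (170 against 187) were not. The part of these markers in the level of *Ppp1r14c* was not tested. The 5 genes most like *Ppp1r14c* were the synapse gene *Insyn1* (0.986 over the 8 line means), the ceramide kinase *Cerk* (0.983), the V-ATPase subunit *Atp6ap1* (0.981), the phosphodiesterase *Gde1* (0.98), and *D5Ertd579e* (0.979). All were on in all 8 lines. *Insyn1* stood at 200 and 193 CPM in the lines that were on for *Ppp1r14c* and between 21.8 and 40.4 CPM in the other 6.

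**Figure D3:**
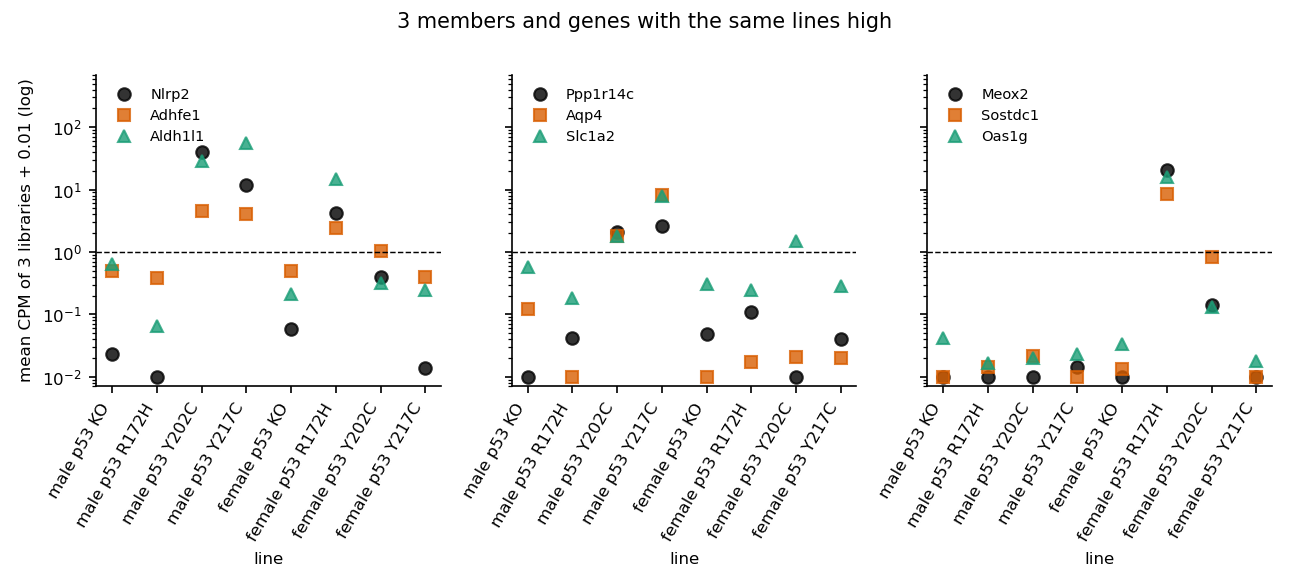
Line means of 3 libraries in CPM plus 0.01 on a log axis for *Nlrp2* with *Adhfe1* and *Aldh1l1* (left), *Ppp1r14c* with *Aqp4* and *Slc1a2* (middle), and *Meox2* with *Sostdc1* and *Oas1g* (right); the dashed line is 1 CPM. *Nlrp2* and *Aldh1l1* are above the line in the same 3 lines, *Ppp1r14c* and *Aqp4* in the same pair of male lines, and the genes at the right in female p53 R172H only.

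The family of *Ppp1r14c* did not move as a group in male p53 Y217C. Of 9 listed inhibitors of protein phosphatase 1, 6 were in the table, of which 2 rose, 3 fell, and 1 did not pass the test, with a median log2 fold change of -0.03 against 0.00 for all genes. In that comparison 34.9% of all genes were called higher and 35.6% lower. *Ppp1r1a*, an inhibitor activated by protein kinase A, rose from 0.21 ± 0.0149 to 4.17 ± 0.767 CPM (4.30, adjusted p = 1.76e-10, edgeR) and *Ppp1r11* by 0.24 (adjusted p = 0.000254). *Ppp1r2*, *Ppp1r8*, and *Ppp1r14b* fell by 0.38, 0.35, and 0.29 (adjusted p = 1.97e-05, 1.27e-06, and 0.00365). *Ppp1r14a*, the smooth muscle relative CPI-17, stood at 0.993 ± 0.349 against 0.604 ± 0.0242 CPM (adjusted p = 0.0701, edgeR).

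Of 24 genes of the myosin phosphatase and myosin light chain pathway, 7 rose, 7 fell, and 10 did not pass the test, and the median was 0.00. *Mylk*, the kinase that phosphorylates myosin light chains, rose from 7.13 ± 1.16 to 82.8 ± 7.37 CPM (3.53, adjusted p = 5.7e-16, edgeR). The next rises were small: *Myl12b*, a regulatory light chain, rose by 0.77 (adjusted p = 3.53e-10) and *Ppp1cb*, the catalytic subunit of myosin phosphatase, by 0.41 (adjusted p = 2.68e-06). *Prkcd*, a protein kinase C isoform, fell from 109 ± 3.66 to 41.9 ± 1.25 CPM (-1.38, adjusted p = 1.35e-16, edgeR), and the nonmuscle myosin heavy chains *Myh9* and *Myh10* fell by 0.80 and 0.67 (adjusted p = 3.19e-11 and 2.52e-11).

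*Meox2* was on in female p53 R172H alone. Its counts there were 1988, 2023, and 2383, and in female p53 Y202C they were 10, 10, and 4. All libraries of female p53 KO, female p53 Y217C, male p53 KO, male p53 R172H, and male p53 Y202C had 0, and male p53 Y217C had 0, 1, and 0. In CPM this was 20.3 ± 1.84 in female p53 R172H and 0.131 ± 0.0708 in female p53 Y202C (SD, n = 3). The rise that chose it was at least 473-fold over female p53 KO, and it ranked 1 at 13.79 on the fitted log2 scale, above *Il1rn* at 13.55. Female p53 Y202C, which shares the p53 KO libraries, was at least 1.33-fold above them. No fold is given in the male culture, where all 4 lines were at or under the floor, so that a p53 R172H line was on in 1 culture and undetected at this depth in the other.

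The level in female p53 Y202C was 0.645% of that in female p53 R172H. Of the 19 genes that were on in female p53 R172H and off in the 6 lines other than female p53 Y202C, 1 was on, 12 were low, and 6 were off in the latter, at 0.356% to 20.3% of their level in female p53 R172H and with a median of 1.84%. The 5 genes most like *Meox2* were *Oas1g* (0.997 over the 8 line means), *Cxcl9* (0.992), *Phf11b* (0.992), *Col28a1* (0.986), and *Ifi44* (0.985). *Oas1g*, *Cxcl9*, and *Ifi44* belong to the genes induced by interferon, and *Col28a1* encodes a collagen. The first 4 were on in female p53 R172H alone, at 16.2, 12.1, 3.34, and 25.5 CPM, and *Ifi44* had 167 CPM there and 8.68 CPM in female p53 Y202C.

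The summed markers of fibroblasts and meninges were also highest in female p53 R172H. The 6 fibroblast and meningeal markers were all on there and summed to 41694 to 48670 CPM, against 23685 to 25631 in female p53 KO, 34550 to 40846 in female p53 Y202C, and 24697 to 26612 in female p53 Y217C. The 3 endothelial markers analysed summed to 17.2 to 17.8 CPM in female p53 R172H and 17.7 to 19.1 in female p53 KO, ranges that overlapped, and *Pecam1*, *Cldn5*, and *Emcn* were not analysed here. *Pdgfrb*, a receptor of pericytes and fibroblasts, stood at 439 CPM in female p53 R172H, under 786 CPM in male p53 Y217C and 725 CPM in female p53 Y202C. The part of the mesenchymal markers in the level of *Meox2* was not tested.

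Transcription factors of mesoderm and mesenchyme moved in both directions in female p53 R172H. Of 22 listed, 18 were in the table, of which 9 rose, 7 fell, and 2 did not pass the test, with a median log2 fold change of 0.22 against -0.01 for all genes. In that comparison 34.4% of all genes were called higher and 35.3% lower. The paralog *Meox1*, which acts with *Meox2* in somites, was on in all 8 lines and rose from 7.75 ± 0.235 to 22.4 ± 2.3 CPM (1.53, adjusted p = 1.79e-10, edgeR). *Eya1* rose from 3.17 to 19.5 CPM (2.63, adjusted p = 7.08e-14) and *Prrx2*, a factor of limb and facial mesenchyme, from 29 to 122 CPM (2.07, adjusted p = 2.75e-18). *Six2* fell by 1.67 (adjusted p = 1.61e-17), and *Eya2* fell from 18.6 to 6.55 CPM (adjusted p = 3.55e-14, edgeR), so the partners *Eya1* and *Eya2* moved in opposite directions.

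**Figure D4:**
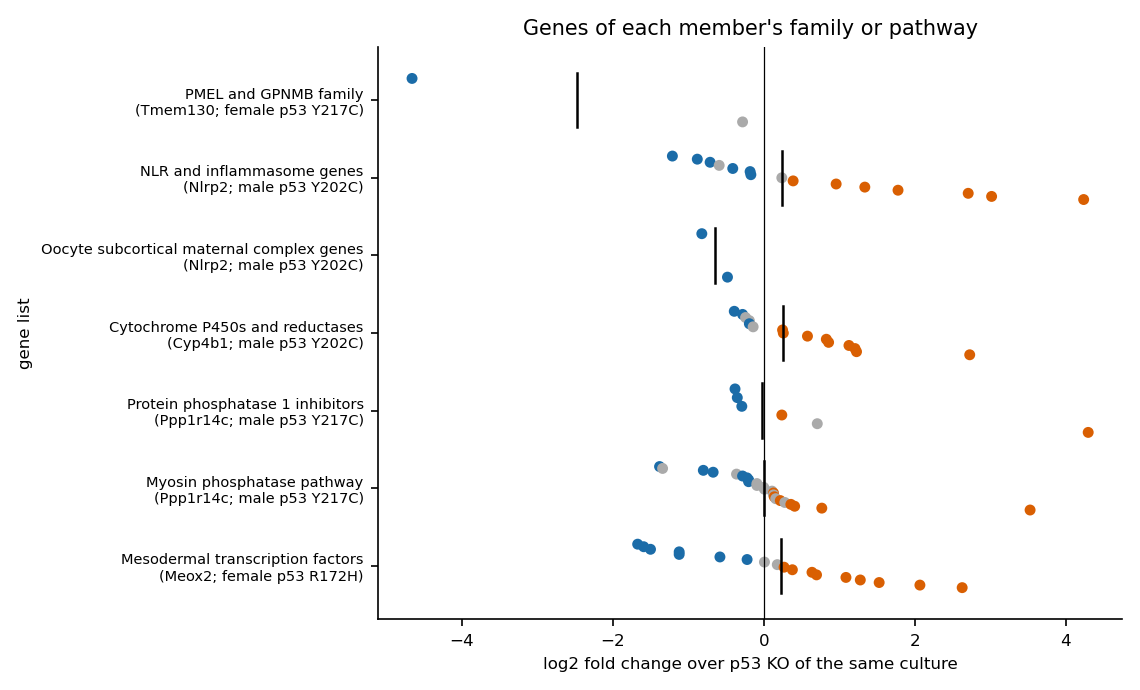
Log2 fold change over the p53 KO of the same culture for the genes of each list, with the listed gene's own family or pathway at the left and the member and line in brackets (orange, called higher; blue, called lower; gray, not past the test; black bar, median). Each list has genes on both sides of 0 except the small lists of *Gpnmb* and *Pmel* and of the oocyte complex.

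The genes beside each of the 5 were then examined, since position was not used to choose them. The 5 nearest genes analysed on each side were taken, 10 in all, except for *Ppp1r14c*, which had no tested gene between it and the start of chromosome 10. Within their span, 4 of 13 protein-coding genes were not analysed for *Tmem130*, 19 of 30 for *Nlrp2*, and 17 of 27 for *Cyp4b1*. For *Meox2* it was 6 of 16, and for *Ppp1r14c* 0 of 4. Nearest thus means nearest among the genes analysed. For *Tmem130* in female p53 Y217C, 1 of 10 was called higher and 3 lower (28% and 28.7% of all genes), with fitted log2 changes between -0.53 and 0.28. Its nearest neighbors were *Bri3*, 289 kb away, at 59.0 against 57.5 CPM (adjusted p = 0.669, edgeR), and *Trrap*, 5.91 kb away, which fell by 0.26 (adjusted p = 0.000297). *Smurf1* and *Pdap1* were also lower (-0.53 and -0.19, adjusted p = 1.56e-09 and 0.0349) and *Arpc1a* higher (0.28, adjusted p = 0.000231).

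For *Nlrp2* in male p53 Y202C, 4 of 10 were called higher and 2 lower (37.6% and 35.4% of all genes). The nearest, *Rasl2-9* at 173 kb and *Gm5321* at 668 kb, did not pass the test (adjusted p = 0.194 and 0.833, edgeR). *Ccdc106*, *Zfp787*, *Zfp444*, and *Epn1* rose by 1.33, 0.57, 0.55, and 0.48, and *Zfp583* and *U2af2* fell by 0.57 and 0.32 (adjusted p between 2.95e-09 and 0.0119).

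For *Ppp1r14c* in male p53 Y217C, 1 of 5 was called higher and 2 lower (34.9% and 35.6% of all genes). *Plekhg1*, the nearest at 275 kb, fell by 1.00 (adjusted p = 0.00634, edgeR), *Akap12* fell by 0.97 (adjusted p = 8.39e-12), and *Mthfd1l* rose by 0.22 (adjusted p = 6.28e-05). No neighbor of *Tmem130*, *Nlrp2*, or *Ppp1r14c* changed by as much as 1.5 on the log2 scale.

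All 10 neighbors of *Cyp4b1* passed the test in male p53 Y202C, 7 higher and 3 lower, with a median of 0.43 against 0.01 for all genes, of which 37.6% were called higher and 35.4% lower. The higher ones included all 5 on the side of greater coordinates: *Efcab14* at 90 kb (0.77, adjusted p = 2.96e-09, edgeR), *Atpaf1* (0.59, adjusted p = 2.47e-08), *Mob3c* (0.47, adjusted p = 4.67e-06), the kinase *Mknk1* (1.27, adjusted p = 1.13e-14), and *Faah*, the hydrolase of anandamide, at 319 kb (1.86, adjusted p = 1.1e-08). On the other side *Stil*, the nearest at 582 kb, fell by 1.06 (adjusted p = 7.92e-10), and *Foxd2* and *Foxd2os* fell by 0.61 each, while *Trabd2b* and *Cmpk1* rose by 0.39 and 0.14 (adjusted p between 1.29e-07 and 0.0163). *Faah* was on in male p53 Y202C at 4.26 ± 0.498 CPM, in male p53 Y217C at 8.11 ± 1.29, and in female p53 R172H at 4.35 ± 1.07 (SD, n = 3), and so in lines where *Cyp4b1* was low or at 0 as well.

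Near *Meox2*, 1 gene had the same on, low, and off lines, a pattern held by 12 of all 14427 genes, *Meox2* included. *Sostdc1*, a secreted inhibitor of BMP and Wnt signals, lies 790 kb away and had 836, 815, and 1083 counts in female p53 R172H, 42, 67, and 51 in female p53 Y202C, and 0 or 1 in female p53 KO. In the other 5 lines no library had over 2 counts. It stood at 8.6 ± 0.312 CPM in female p53 R172H and 0.824 ± 0.195 CPM in female p53 Y202C (SD, n = 3). Its fitted log2 change in female p53 R172H was 10.76, on 1 count in p53 KO. Since *Sostdc1* was low or off in every other line, it passed the removal of low genes through female p53 R172H. That change is therefore a description and no test, although *Sostdc1* is counted below among the neighbors called higher.

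The other 9 neighbors of *Meox2* stayed between -1.25 and 1.37, and of all 10, 4 were called higher and 5 lower (34.4% and 35.3% of all genes). *Ispd*, at 419 kb, rose by 1.37 (adjusted p = 4.71e-05, edgeR), the ETS factor *Etv1*, the nearest on the other side at 1600 kb, rose by 0.61 (adjusted p = 0.000444), and *Ankmy2* by 0.23 (adjusted p = 0.0138). *Mir5099*, the nearest at 292 kb, fell by 1.25 (adjusted p = 0.00641), and *Dock4*, *Arl4a*, *Ifrd1*, and *Bzw2* fell by 0.89, 0.67, 0.51, and 0.24 (adjusted p between 1.2e-09 and 3.84e-05).

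**Figure D5:**
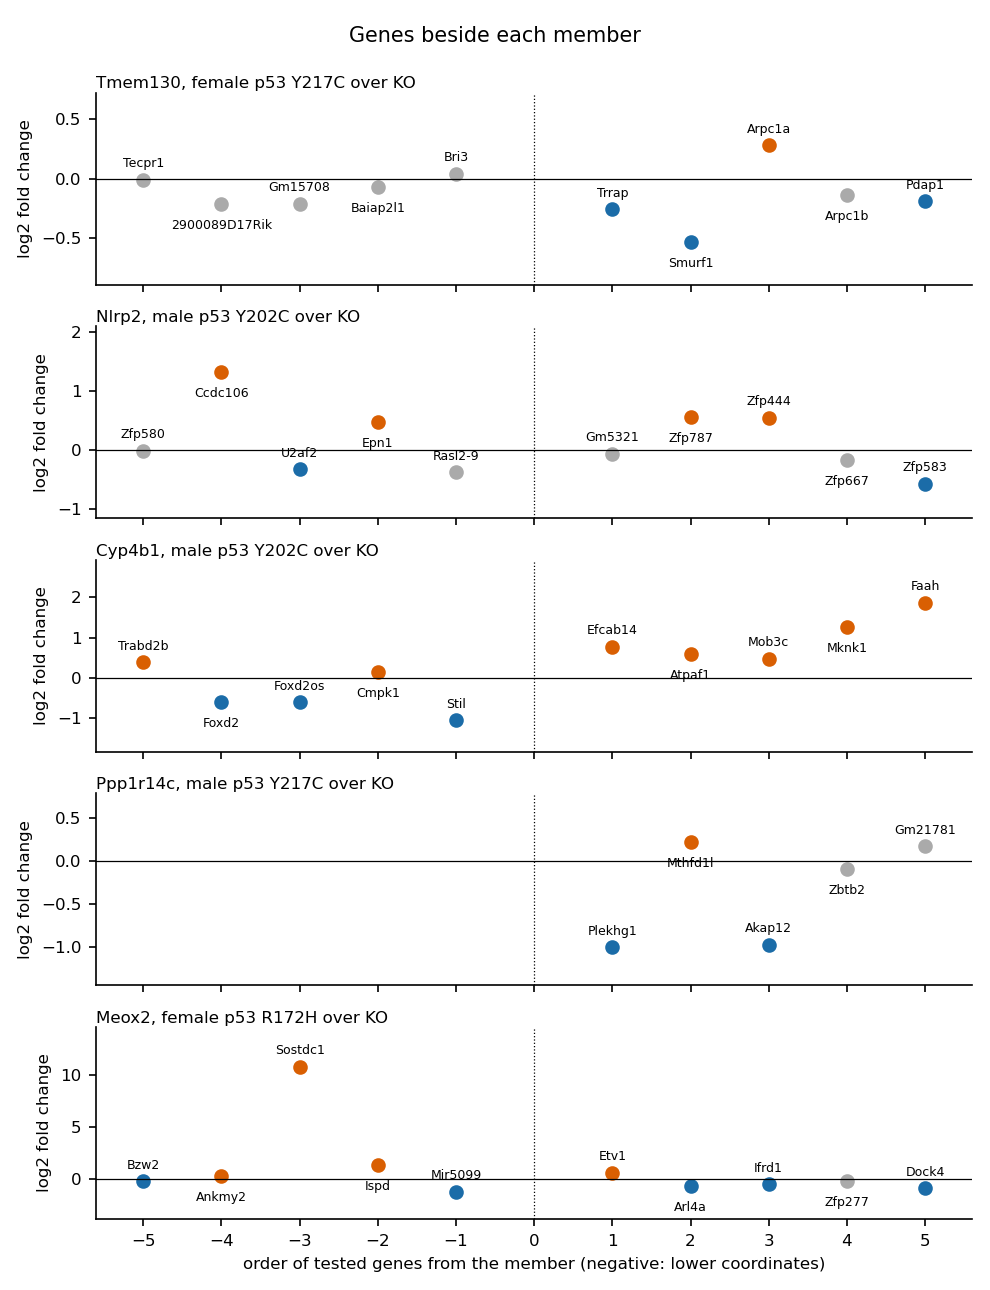
Fitted log2 fold change of the tested genes on each side of the 5 genes, in the line that chose each, over the p53 KO of the same culture (orange, called higher; blue, called lower; gray, not past the test; each panel has its own scale). *Sostdc1* at 10.76 stands far above the other neighbors of *Meox2*, and *Faah* at 1.86 is the highest beside *Cyp4b1*.

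The 5 genes were also set against each other over the 8 line means. *Nlrp2*, *Cyp4b1*, and *Ppp1r14c* had Pearson correlations of 0.851 (*Nlrp2* and *Ppp1r14c*), 0.826 (*Cyp4b1* and *Ppp1r14c*), and 0.745 (*Nlrp2* and *Cyp4b1*), and all 3 were on in male p53 Y202C and above the floor in male p53 Y217C. *Meox2* had correlations between -0.254 and 0.316 with the other 4, and *Tmem130* between 0.244 and 0.363. These points share libraries, have n = 8, and include the lines that chose the genes, with male p53 Y202C for both *Nlrp2* and *Cyp4b1*. The correlations are thus a description of chosen genes and carry no test. By line, male p53 Y202C was on for 4 of the 5 genes, male p53 Y217C and female p53 R172H for 3 each, and male p53 R172H, female p53 Y202C, and female p53 Y217C for *Tmem130* alone, while neither p53 KO line was on for any. These states follow in part from the rule, which took large rises of mutant lines over p53 KO. Of all 14427 genes, 11578 were on in all 8 lines, p53 KO included.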

How the data were processed

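Polyadenylated RNA of 24 libraries (8 lines, 3 libraries each, grouped by the sample labels) was sequenced by the study. The authors aligned reads with STAR 2.5.1a to a GRCm38 Ensembl assembly and counted unique, unambiguous reads per gene with featureCounts. The strand of counting is not given in the sources used here. The deposited values are raw counts of 14427 genes, low genes already removed, all with a library column that matched a label. Symbols and positions came from GENCODE M21 on GRCm38 (14350 genes).

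Counts were scaled with TMM factors and tested in R 4.3.3 with edgeR 4.0.16, with 1 mean per line over all 24 libraries, a quasi-likelihood test, and Benjamini-Hochberg adjustment over all genes at 0.05. The fit was tested on simulated data. Alternatives used DESeq2 1.42.0 and limma 3.58.1. P-values measure spread between platings of a line. The SE of a log2 fold change is its absolute value divided by the square root of the test's F statistic. It thus follows from the test and was not estimated separately, also where a line had 0 counts.

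Intervals are 95% Clopper-Pearson intervals of summed counts and cover counting error only, as does the floor of 3 counts per library. Likeness between genes is the Pearson correlation of mean log2 CPM (prior count 2) over 8 lines. Replicate numbers did not pair the libraries. Members and lists were chosen with earlier results of these data known. Named were the 5 genes, their nearest and called neighbors, the 5 most alike genes, the genes ranked beside them, markers, paralogs, and up to 3 rises and 3 falls per list. Further genes named (*Zan* against *Trp53*, genes absent from the table, *Cyp4f17*, *Cyp4f16*, *Por*, *Myh10*) were picked after their values were seen. Some genes that this rule names are not reported here.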

Additional observations from a re-analysis of the deposited data

Results flagged for a closer look

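*Nlrp2* rose in the male culture under p53 Y217C and was fitted as lower in the female culture, between a pair of off lines. Every male p53 Y217C library was above every male p53 KO library (872 to 926 counts against 0 to 3), and every female p53 Y217C library was under every female p53 KO library (0 or 1 count against 3 to 6), with a fitted log2 fold change of -3.04 in the female culture. The female fall was from 13 counts in all to 1, and its call was lost with only the lines compared (adjusted p = 0.0739, edgeR). The difference between the cultures was not tested. Groups of 3 libraries were too small to look for a library far from the others.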

How the results depend on the processing

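*Tmem130*, *Nlrp2*, and *Ppp1r14c* had 9 comparisons in the culture without their largest rise. Of these, the calls of *Tmem130* in males and the rises of *Nlrp2* in females held under every alternative. The alternatives were DESeq2's size factors or test, voomWithQualityWeights, a filter on low counts, a fit of only the lines compared, the replicate block, and each library left out. The fall of *Nlrp2* in female p53 Y217C lost its call (-3.05) with only the lines compared, and its log2 fold change lay between -5.05 (without female p53 Y217C replicate 1) and -2.57 with 1 library left out. That of *Ppp1r14c* in female p53 R172H lay between 0.00 (without female p53 R172H replicate 1, when the line was off and 6 lines in all were) and 2.18 (without female p53 KO replicate 2). The uncalled difference of *Ppp1r14c* in female p53 Y217C changed sign with 1 library left out (0.40 without female p53 KO replicate 2, 0.21 and 0.15 without female p53 Y217C replicates 1 and 2), over a range of -4.71 to 0.40. With the 3 nearest genes on each side, 3 of 3 neighbors of *Ppp1r14c* were called. With off set under 0.2 CPM, *Tmem130* was off in 1 line, and with on set at 2 CPM, *Ppp1r14c* was on in 1 line and *Tmem130* in 5. With off set under 0.05 CPM, *Ppp1r14c* was off in 2 lines. With on set at 0.5 CPM, 270 genes were on in exactly 1 line. Same-numbered libraries did not deviate together (correlations of -0.172 to 0.245 over 18 pairs, 2 over 0.1). The replicate block gave 5689 calls in male p53 R172H and moved no count of calls by over 1.5 times. The fitted rises of *Nlrp2*, *Cyp4b1*, *Ppp1r14c*, and *Meox2* fell to 10.18, 8.10, 6.85, and 9.79 with a prior count of 2. By Spearman correlation, 0 or 1 of each gene's 5 most alike genes remained. Depth limits any statement under 3 counts per library.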
